A study of Hynobius leechii and Hynobius unisacculus and Hynobius quelpaertensis with 23 samples.

Results

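Acute phase genes encode plasma proteins whose level changes in inflammation or injury, and this account follows 8 of them through the tissues of wild-caught Hynobius salamanders. They were chosen by symbol: the pentraxins CRP and APCS, the serpin SERPINA3, and SAA1, HP, HAMP, LBP and ORM1 where a count table held them. Of these 8 symbols, 6 were found, in 18 of the 49173 rows of the 6 tables, while 13514 symbols occurred in at least 1 table. Serum amyloid A (SAA1) and the iron hormone hepcidin (HAMP) are not analysed here. CRP had a row in the HC1, HC3, QU and UN tables, APCS in HC1, HC3, LE, QU and YA, SERPINA3 in HC1, HC3, LE and QU, HP in HC3, QU and UN, and LBP and ORM1 in UN alone. In HC1 the identifiers beside the symbols were ABHYNL1T00005908 for CRP, ABHYNL1T00005559 for APCS and ABHYNL1T00006144 for SERPINA3, and in HC3 that of HP was ABHYNL3T00000848.

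In mammals the acute phase response is driven mainly by interleukin 6 and interleukin 1, which reach hepatocytes from the blood and act through the transcription factors STAT3, C/EBP and NF-kappa-B. Proteins that rise in it, such as CRP, haptoglobin and fibrinogen, are called positive, and those that fall, such as albumin and transferrin, negative. Pentraxins bind microbial surfaces and dead cells and recruit complement, serpins of clade A inhibit proteases or carry hormones, haptoglobin binds free hemoglobin and LBP hands bacterial endotoxin to its receptor. These roles come from mammals, and the proteins that respond most differ between mammalian species.

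PolyA RNA of adult tissue was sequenced from 15 untreated animals, giving 23 libraries of which 5 were intestine, 3 skin and 15 liver. The tables HC1, HC3 and LE are lineages of H. leechii with 3 livers each, and QU (H. quelpaertensis), UN (H. unisacculus) and YA (H. yangi) have 2 livers each. In every table but HC3, 1 animal gave intestine, and 1 animal each of HC1, HC3 and UN gave skin. The labels give no age beyond adult, no sex and no state of health, all animals were captured in nature with no further treatment, and the number of an animal ties its tissues together.

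Total counts were 1703075 to 3390245 in intestine, 2552636 to 4628175 in skin and 8672566 to 19281948 in liver. The 6 livers of animals that gave several tissues stood apart from the 9 livers of animals that gave liver only. Of their counts from 1 to 19, 43.0% to 51.4% were odd, against 11.3% to 18.2%. Of their rows, 24.3% to 40.8% were at 0, against 0.654% to 15.9%. The odd share was 14.1% to 22.5% in intestine and 11.9% to 17.1% in skin, unlike the livers of the same animals. Each comparison of a tissue with the liver of its own animal, and the animal as a block, therefore mixes tissue with this library difference. Summed hepatocyte markers were 82.3 to 9146 CPM (counts per 1000000 counts of the whole table) in intestine, 628 to 15189 CPM in skin and 12648 to 119211 CPM in liver. The highest skin was HC3, where the fibrinogen chain FGB alone gave 14685 CPM. Enterocyte and goblet cell markers summed to 5944 to 20688 CPM in intestine, 847 to 14728 CPM in skin and 0.879 to 91.5 CPM in liver, and keratinocyte markers to 61.1 to 1731, 14521 to 18810 and 10.7 to 244 CPM. The hepatocyte list was not low throughout outside the liver: AMBP was at most 0.225% of the mean liver level in any intestine and 0.156% in any skin, but TAT was at 92.9% in QU intestine and 99.5% in UN skin, and APOB at 57.3% in QU intestine. In bulk tissue, fewer cells of a type and less RNA per cell cannot be told apart. With no sequences or lengths in use, levels are compared within a row and never between genes, and a difference between tables cannot be told apart from one between their assemblies.

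CRP, the C-reactive protein that binds phosphocholine on microbes, was present in all 16 libraries of its tables. In HC1 it had 6.32 CPM in intestine and 293 CPM in skin, against 251, 249 and 207 CPM in the livers of mms7664, mms7665 and mms7666. In HC3 it had 76.4 CPM in skin, against 19.6, 87.0 and 78.3 CPM in the livers of mms7660, mms7661 and mms7662. The skin value lay above all 3 livers in HC1 and inside the liver range in HC3.

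In QU, CRP had 58.7 CPM in intestine, against 606 and 549 CPM in the livers of mms7722 and mmsX002. In UN it had 34.7 CPM in intestine and 255 CPM in skin, against 936 and 176 CPM in the livers of mms7712 and mms7714. The intestine was below every liver of its table in the 3 tables that have one, at 2.68%, 10.2% and 6.25% of the mean liver level in HC1, QU and UN. The HC1 intestine value rests on 14 counts, with an exact 95% Clopper-Pearson interval of 3.45 to 10.6 CPM. That interval leaves out any spread between animals. It also takes counts as independent, where 14.1% of the low counts of that library were odd.

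APCS, serum amyloid P component, a pentraxin that binds DNA and amyloid, was at or near 0 counts in the livers of 2 of its 5 tables. In HC1 it had 0 counts in intestine and 2 in skin, against 0, 0 and 2 counts in liver. In QU it had 6 counts in intestine, or 3.52 CPM, against 0 and 12 counts in liver. The interval of 1.29 to 7.67 CPM for that intestine again takes counts as independent, where 22.5% of its low counts were odd. No direction can be drawn from HC1, where both tissues and all 3 livers are at or under the floor of 3 counts.

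In the other 3 tables APCS was plainly present. HC3 skin had 257 CPM, against 27.98, 242 and 204 CPM in the livers of mms7660, mms7661 and mms7662. LE intestine had 1432 CPM, against 66.6, 343 and 487 CPM in the livers of mms7728, mms7729 and mms7730, so that the intestine lay above all 3 livers. YA intestine had 27.1 CPM, against 224 and 44.8 CPM in the livers of mms7700 and mms7701, so that it lay below both. LE intestine was at 2.94 times the liver of the same animal, and YA intestine at 0.605 times.

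SERPINA3, alpha-1-antichymotrypsin in mammals, was low outside the liver wherever its table held another tissue. HC1 intestine had 41.5 CPM and HC1 skin 9.94 CPM, against 5488, 2190 and 16226 CPM in the livers of mms7664, mms7665 and mms7666. HC3 skin had 1.57 CPM, or 4 counts, against 2723, 1700 and 2274 CPM in the livers of mms7660, mms7661 and mms7662. QU intestine had 26.4 CPM, against 7991 and 8437 CPM in the livers of mms7722 and mmsX002. LE intestine was at 0, against 248, 216 and 35.6 CPM in the livers of mms7728, mms7729 and mms7730.

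No intestine or skin reached the lowest liver of its table for SERPINA3. Intestine was at 0.521% of the mean liver level in HC1 and 0.322% in QU, and skin at 0.125% in HC1 and 0.0702% in HC3. In LE, the intestine at 0 counts was at least 23.4-fold lower than the liver of the same animal, with a floor of 3 counts for that library.

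HP, haptoglobin, had 23.5 CPM in HC3 skin, against 221, 301 and 5683 CPM in the livers of mms7660, mms7661 and mms7662. QU intestine had 13.5 CPM, against 47.5 and 11.1 CPM in the livers of mms7722 and mmsX002, and lay between them. UN intestine had 2.67 CPM and UN skin 2.90 CPM, against 0 and 5.06 CPM in the livers of mms7712 and mms7714. HC3 skin was below all 3 livers, while in the other tables the ranges overlapped.

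LBP, held by UN alone, had 20.03 CPM in intestine and 54.9 CPM in skin, against 3.19 and 0.562 CPM in the livers of mms7712 and mms7714. Both tissues lay above both livers. BPI, its relative of neutrophil granules, had 40.4 CPM in intestine and 170 CPM in skin, against 12.1 and 5.31 CPM in the same livers. ORM1, an orosomucoid that binds drugs in plasma, had 0 counts in intestine and 2 in skin, against 0 and 4 counts in liver, too few to be tested.

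**Figure D1:**
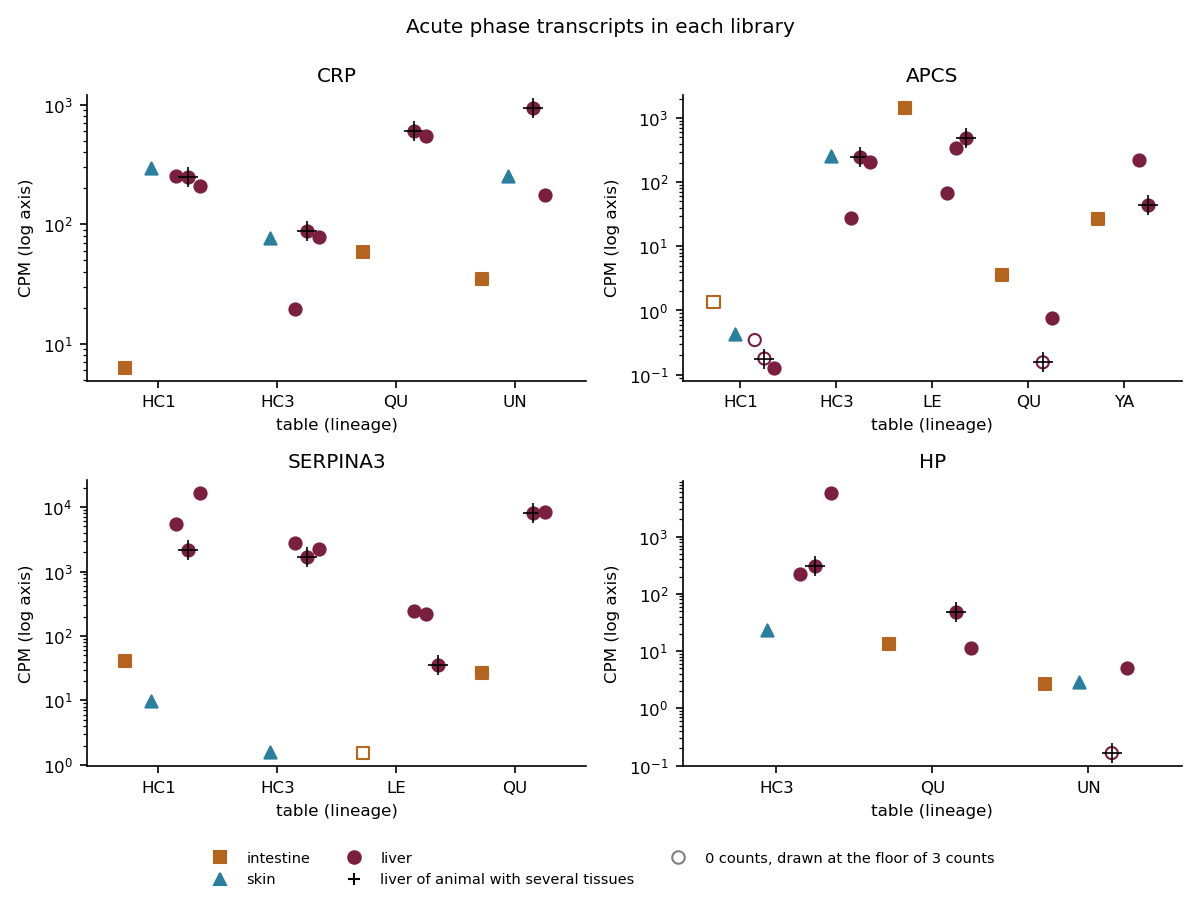
Level of CRP, APCS, SERPINA3 and HP in each library as CPM of the whole table (log axis), by table, with intestine (squares) and skin (triangles) left of liver (circles). Open symbols are 0 counts drawn at the floor of 3 counts, and crosses mark livers of animals with several tissues. SERPINA3 lies far below liver in every intestine and skin, while CRP of skin lies within or near the liver values and APCS lies above the livers in LE intestine and below them in YA intestine.

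Intestine was tested against liver within tables, in a fit with terms for lineage and tissue over those joined tables that hold a member. Among all 4171 genes of the SERPINA3 join, 2.57% were called at an adjusted p under 0.05, 1.8% higher and 0.767% lower in intestine. SERPINA3 was among the lower ones, with a log2 fold change of -9.30 ± 1.74 (SE, 3 intestines against 8 livers, 95% interval -13.19 to -5.42, edgeR with Benjamini-Hochberg, adjusted p = 0.0244). With the animal as a block it was -7.81 with an adjusted p of 0.594, and no gene of the join was called. The call was also lost without any 1 of the 3 intestines or of the HC1 livers mms7664 and mms7666 and the LE livers mms7728 and mms7729, with adjusted p of 0.0526 to 0.0753 and log2 fold changes of -10.12 to -8.75.

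CRP had a log2 fold change of -4.66 ± 0.91 in intestine (3 intestines against 7 livers, 95% interval -6.71 to -2.60), and its adjusted p of 0.0536 (edgeR, Benjamini-Hochberg) missed the threshold. In that join 0.765% of 4443 genes were called, and CRP was not one of them. Single tables have 1 intestine or skin, so their tests take its spread to be that of the livers. On their own, HC1, QU and UN gave -5.88 ± 0.75, -4.59 ± 0.73 and -4.25 ± 1.48 for CRP. Over the joined tables CRP was called with median-of-ratios scaling (-4.58, adjusted p = 0.0320), whole-table library sizes (-4.11, 0.0375), DESeq2 (-4.57, 2.15e-13) and a stricter filter (-4.60, 0.0415). These settings called 101, 199, 873 and 56 genes of the join, against 34 in the main fit. CRP was not called with the animal as a block (-4.57, edgeR adjusted p = 0.579) or without livers of animals with several tissues (-4.63, 0.0676). Nor was it without a filter (-4.66, 0.0557), with a term for such livers (-4.81, 0.0997) or with any 1 library left out (0.0541 to 0.257).

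APCS had a log2 fold change of 0.62 ± 1.27 in intestine (4 intestines against 10 livers, 95% interval -2.15 to 3.40, adjusted p = 0.798 by edgeR). In that join 4.88% of 3220 genes were called, 3.32% higher and 1.55% lower. With whole-table library sizes APCS was at 1.55, while the median of all genes stood at 1.47 in place of 0.74. Taken alone, LE gave 1.91 ± 0.94 (adjusted p = 0.318) and YA gave -2.56 ± 1.42 (adjusted p = 0.534). A test of whether the difference differs between tables gave an adjusted p of 0.9998 for APCS (edgeR), and 0 genes of 3220 were called in it, with 166 at an unadjusted p under 0.05. HP had -1.24 ± 2.01 (adjusted p = 0.833) and LBP 3.16 ± 1.44 (UN only, 1 intestine against 2 livers, adjusted p = 0.466). Neither join had a called gene with edgeR, although 531 of 5146 and 828 of 6525 genes had an unadjusted p under 0.05 and DESeq2 called 624 and 537. In UN edgeR called 169 genes with whole-table sizes, 551 without a filter and 64 with a stricter one.

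Skin was tested against liver in the same way. SERPINA3 had a log2 fold change of -11.01 ± 1.58 (2 skins against 6 livers, 95% interval -14.66 to -7.35, adjusted p = 0.0151, edgeR with Benjamini-Hochberg), where 2.58% of 5772 genes were called, 1.54% higher and 1.04% lower. With the lone skin taken to vary like the livers, HC3 alone gave -11.93 ± 1.67 and HC1 alone -10.37 ± 2.07. With the animal as a block it was -9.88 (adjusted p = 0.519), and the call was lost without the HC1 skin (-11.86, adjusted p = 0.0856), the HC3 skin (-10.43, adjusted p = 0.136) or the HC3 liver of mms7660 (-10.98, adjusted p = 0.0524).

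CRP in skin had a log2 fold change of -1.02 ± 0.74 (3 skins against 8 livers, 95% interval -2.65 to 0.61, adjusted p = 0.473 by edgeR), where 5.4% of 4628 genes were called, 4.02% higher and 1.38% lower. HC1, HC3 and UN on their own gave -0.39 ± 0.54, -1.37 ± 1.16 and -2.10 ± 1.30. In CPM the HC1 skin lay above all 3 livers, so CPM and the TMM fit of HC1 point opposite ways for CRP. With whole-table library sizes the joined value was -0.07, while the median of all genes stood at 1.73 in place of 0.74. Relative to that median CRP was at -1.76 with TMM scaling and -1.80 with whole-table sizes.

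APCS in skin had 0.39 ± 1.26 (edgeR, 95% interval -2.52 to 3.30, adjusted p = 0.909) and -1.004 ± 1.43 in HC3 on its own. In CPM the HC3 skin lay above all 3 livers, so CPM and the TMM fit of that table point opposite ways. With whole-table library sizes the joined value was 1.55, while the median of all genes stood at 1.53 in place of 0.44. HP in skin had -2.97 ± 3.18 (2 skins against 5 livers, adjusted p = 0.640), with 2.44% of 5291 genes called, 1.74% higher and 0.699% lower. It was -0.045 with the animal as a block, -0.75 without the HC3 skin, -8.17 without the UN skin and -5.29 without the UN liver of mms7712. LBP in skin had 3.88 ± 1.23 (1 skin against 2 livers, adjusted p = 0.203), where edgeR called 0 of 6810 genes, 1067 had an unadjusted p under 0.05 and DESeq2 called 689. In that table edgeR called 503 genes with whole-table sizes, 745 without a filter and 359 with a stricter one. LBP passed with whole-table sizes (4.86, adjusted p = 0.0459) and without a filter (3.86, adjusted p = 0.0261).

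**Figure D2:**
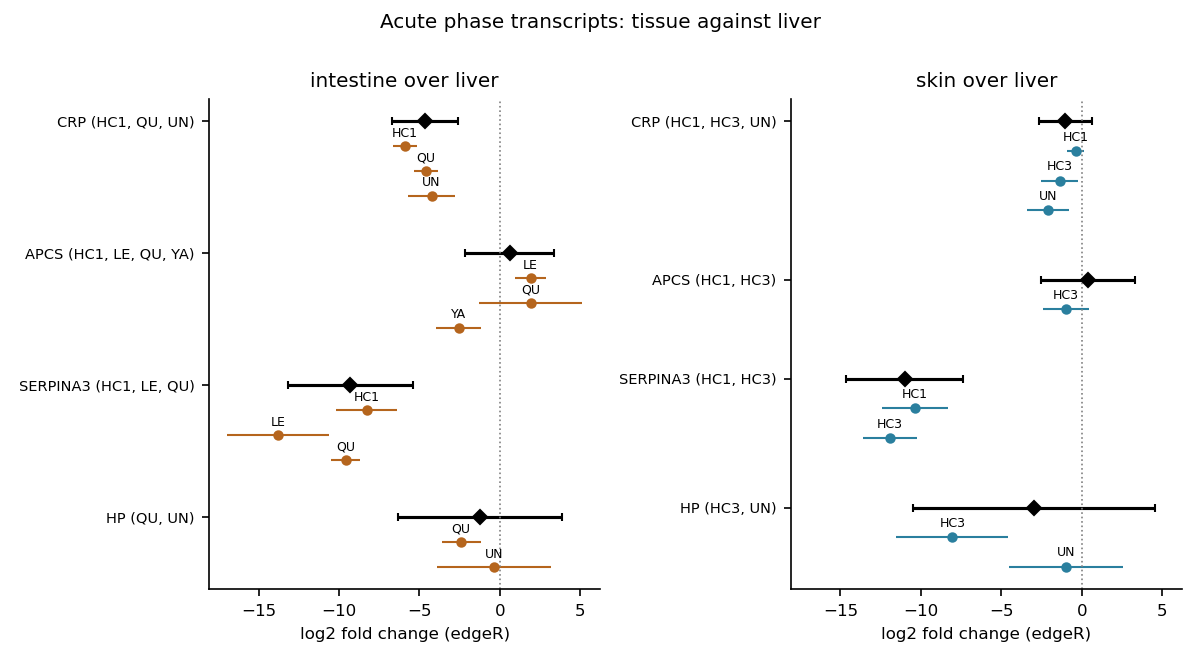
log2 fold change of intestine over liver (left panel) and skin over liver (right panel) from edgeR, for the joined tables (black diamonds, bars are 95% intervals) and for each table alone (coloured circles, bars are ± 1 SE). SERPINA3 lies at -9.30 in intestine and -11.01 in skin with intervals that leave out 0, CRP at -4.66 in intestine and -1.02 in skin, and the APCS and HP intervals hold 0.

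The other acute phase genes of the CRP joins were counted in the same way. Of 9 measured positive acute phase genes beside the members, 0 were called in intestine, with a median log2 fold change of -0.07 against 0.74 for all genes. Of all 4443 genes of the intestine join 0.765% were called, and 0 of 9 does not set these genes apart. Ceruloplasmin, CP, which carries copper, had the value nearest the threshold there, -4.54 ± 0.88 with an adjusted p of 0.0536 (edgeR). In skin 2 of 12 fell and 0 rose, with a median of -2.49 against 0.74 for all genes. They were CP, at -3.99 ± 0.96 (edgeR, adjusted p = 0.0388), and the mannose-binding lectin MBL2, at -6.62 ± 1.51 (adjusted p = 0.0336). In that join 1.38% of all genes were lower.

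Among negative acute phase genes, 1 of 5 fell in intestine, where 0.36% of genes were lower and 0.405% higher. It was RBP4, the plasma carrier of retinol, at -8.82 ± 1.16 (edgeR, adjusted p = 0.0155). In skin, where 1.38% of genes were lower and 4.02% higher, 3 of 6 fell. They were RBP4 at -8.17 ± 1.10 (edgeR, adjusted p = 0.00459), antithrombin SERPINC1 at -8.03 ± 0.96 (adjusted p = 0.00230) and transferrin TF at -7.13 ± 1.26 (adjusted p = 0.0156). Of the receptors of acute phase cytokines, 0 of 3 were called in intestine and 1 of 4 rose in skin, the interleukin 22 receptor IL22RA1, at 5.52 ± 0.93 (adjusted p = 0.0125). None of 2 cytokine ligands in intestine or 1 in skin, and none of 5 signalling genes and transcription factors in intestine or 10 in skin, was called. Endotoxin recognition (2 in intestine, 1 in skin), hepcidin control (8 and 7), clade A serpins (4 and 4) and pentraxin partners (3 and 2) likewise had 0 called. With so few genes, counts of 0 lie near the shares of all genes and do not set these lists apart.

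How far the livers of one table differ was described by the ratio of the highest to the lowest liver, beside the same ratio for all rows with a mean of at least 10 CPM. CRP was narrow in HC1, with a ratio of 1.21 where the median row had 1.98, and 6.86% of rows had a smaller one. In QU its ratio was 1.10 (median row 1.45), while in HC3 it was 4.43 (2.34) and in UN 5.33 (1.60). With TMM scaling the CRP ratio was 7.56 in HC3 and 3.71 in UN. In HC3 the low liver was mms7660 and the other livers were close to each other, and in UN mms7714 was the low one.

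APCS was wide in each table where it was present, with ratios of 8.66 in HC3, 7.31 in LE and 5.01 in YA. A smaller ratio was found in 88.6%, 93.3% and 93.4% of the rows there. With TMM scaling the HC3 ratio was 14.8. The low liver was mms7660 in HC3, mms7728 in LE and mms7701 in YA, and the high one mms7661, mms7730 and mms7700. Of these mms7661, mms7730 and mms7701 are livers of animals with several tissues, as is mms7712, the high liver of UN for CRP. Between livers of animals with liver only, the APCS ratio was 7.29 in HC3 (96.0% of rows smaller) and 5.15 in LE (98.4%). In HC3, CRP and APCS were both lowest in mms7660 and both highest in mms7661, and the quotient of their counts was 0.297 in skin, against 0.701, 0.359 and 0.384 in the livers of mms7660, mms7661 and mms7662. Whether reads were shared between these rows was not tested.

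SERPINA3 differed by 7.41 times in HC1 (89.8% of rows smaller) and by 6.97 times in LE (93.1%). In HC3 it differed by 1.60 times (median row 2.34) and in QU by 1.06 times (median row 1.45). In both wide tables the lowest liver was one of an animal with several tissues, mms7665 in HC1 and mms7730 in LE. Without those livers the ratio was 2.96 in HC1 (median row 1.41, 89.2% of rows smaller). In LE it was 1.15 (median row 1.30, 27.9% smaller). Relative to other rows the SERPINA3 spread thus stayed wide in HC1 and not in LE. In HC1, SERPINA12 and SERPINA7 followed SERPINA3 across the livers of mms7664, mms7665 and mms7666, with 4887, 2334 and 13656 CPM and with 2789, 1031 and 7245 CPM. SERPINA1 did not, with 7332, 9858 and 10597 CPM. SERPINA9 and SERPINA6 were highest in mms7665, at 19.4 and 12.0 CPM. The remaining clade A rows of HC1 averaged 1.28 CPM or less in liver.

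HP spread most widely of the members in HC3, where mms7662 held 25.7 times the lowest liver and 93.1% of rows had a smaller ratio. HPR, the haptoglobin-related row of the same table, which is not a member, had 0.784 CPM in skin, against 53.7, 11.7 and 3032 CPM in the livers of mms7660, mms7661 and mms7662. HP and HPR are close relatives, so reads may have been split between them, which was not tested. In QU the HP ratio was 4.26 (median row 1.45).

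The HC3 liver mms7662, where HP and HPR stood high, was singled out after these values were seen, and the other positive acute phase genes are given for it with no test. Of 13 of them with at least 10 CPM, 10 (76.9%) were highest in this liver, against 23.9% of the 2739 rows of the table at that level. Their median difference from the mean of the other livers was 1.01 on the log2(CPM + 1) scale, against -0.21 for all rows. HPX, hemopexin, which binds heme, had 25727 CPM in mms7662, against 1978 and 7125 CPM in mms7660 and mms7661. CP had 3487 CPM there, against 803 and 1089 CPM. The fibrinogen chain FGA had 73988 CPM there, against 52544 and 47473 CPM, and FGB had 70243 CPM, against 45832 and 86033 CPM. Of 7 negative acute phase genes, 2 were highest and 2 lowest in mms7662, with a median difference of 0.08. The 2 highest were TF, with 2099 CPM there against 699 and 436 CPM, and RBP4, with 2434 CPM against 1617 and 1694 CPM. The 2 lowest were SERPINA6, with 1356 CPM against 4668 and 7259 CPM, and AHSG, with 1581 CPM against 2908 and 2136 CPM.

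A2M, alpha-2-macroglobulin, named after its values were seen, did not share this order, with 8346 CPM in mms7662 against 13760 and 8351 CPM in mms7660 and mms7661. Set against mms7660 alone, 11 of the 13 (84.6%) were higher in mms7662, where 27.8% of 2893 rows were. The members themselves did not all share the order either: CRP and APCS of mms7662 lay between the other livers, and SERPINA3 also. Of 5 clade A serpins at that level beside SERPINA3 in that liver, 3 were lowest there, as were 43.5% of all rows of the table. Summed exocrine pancreas markers, 4 of 10 held, were 161 CPM in mms7662, against 7879 and 11575 CPM in mms7660 and mms7661. Summed leukocyte markers, 8 of 9 held, were 1086 CPM against 1053 and 712 CPM, and none was at 0 in mms7662. Their part in the result was not tested.

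**Figure D3:**
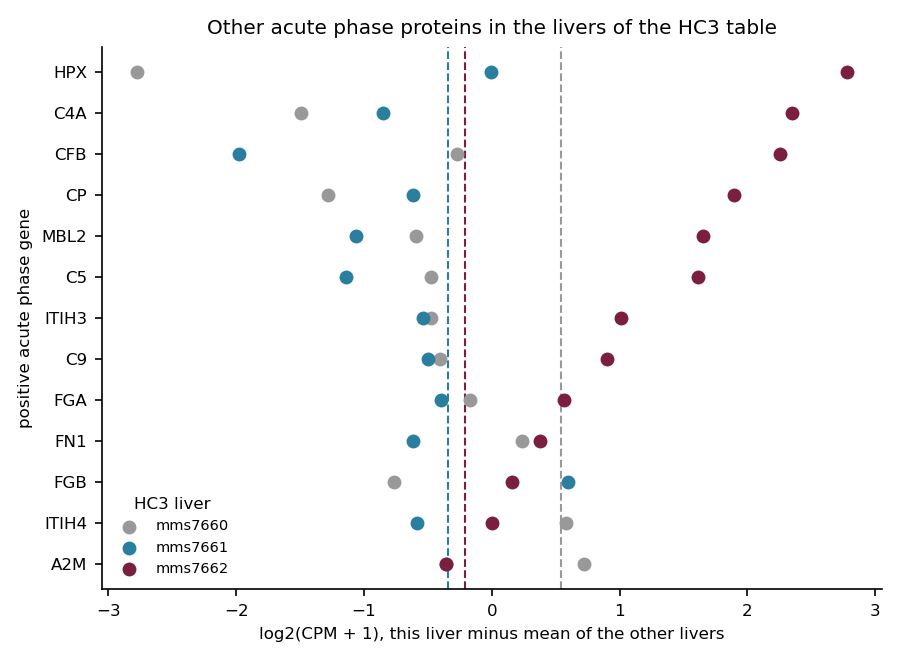
Level of 13 positive acute phase genes other than the members in each HC3 liver, as log2(CPM + 1) minus the mean of the other livers, with dashed lines at the median of all rows for each liver. The liver of mms7662 (dark red) is highest in 10 of the 13 genes, and the points of mms7661 and mms7662 coincide for A2M.

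In the other tables the liver with most of these genes at their highest was of either kind. Among livers of animals with several tissues, mms7730 of LE was highest in 7 of 8 genes (52.5% of its rows), mms7712 of UN in 6 of 6 (59.4% of rows) and mms7722 of QU in 5 of 7 (51.3% of rows). Among livers of animals with liver only, mms7700 of YA was highest in 7 of 7 (43.6% of rows). In HC1 the counts were 3, 3 and 4 of 10 in mms7664, mms7665 and mms7666. APCS was highest in mms7730 within LE and in mms7700 within YA, and CRP in mms7712 within UN and mms7722 within QU. SERPINA3 was lowest in mms7730 within LE. In that liver summed hepatocyte markers were 119211 CPM, against 56328 and 63509 CPM in mms7728 and mms7729. FGB, also one of the positive acute phase genes counted above, gave 91135 CPM of that sum, against 40567 and 37081 CPM. APOB and TAT were at 0 in mms7730, but they averaged only 0.498 and 0.931 CPM over all LE livers. Exocrine pancreas markers were 35.4 CPM in mms7730, against 14408 and 115 CPM. Summed macrophage markers were 565 CPM in mms7730, against 203 and 181 CPM in mms7728 and mms7729. C1QC alone gave 555 CPM in mms7730, against 196 and 169 CPM. MARCO, C1QA and C1QB were at 0 in mms7730, as were MARCO in mms7728 and C1QA and C1QB in mms7729. Leukocyte markers summed to 1823 CPM in mms7730, against 390 and 655 CPM. Of these, PTPRC, SPI1 and MPO were at 0 in mms7730 and MPO in mms7728, while none was in mms7729. Their part was not tested.

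Livers of animals with several tissues were set against livers of animals with liver only, within tables. No member passed this test. CRP had a log2 difference of 0.41 ± 0.70 (4 against 6 livers, adjusted p = 0.728 by edgeR), where 0 of 3055 genes were called, 427 had an unadjusted p under 0.05 and DESeq2 called 403. APCS had -0.85 ± 1.08 (adjusted p = 0.559), with 0.744% of 2420 genes called. SERPINA3 had -1.74 ± 0.69 (4 against 7 livers, adjusted p = 0.313 by edgeR), with 1.03% of 3009 genes called, all lower. HP had -2.92 ± 2.68 (adjusted p = 0.806), where 0 of 3323 genes were called, 181 had an unadjusted p under 0.05 and DESeq2 called 189. The median of all genes was -1.21, -1.30, -1.14 and -0.98 in these joins.

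Levels between lineages were set side by side with the spread within a table. CRP livers averaged 578 ± 40.7 CPM in QU (SD, n = 2), 556 ± 538 in UN (n = 2), 236 ± 24.7 in HC1 (n = 3) and 61.6 ± 36.6 in HC3 (n = 3). QU and UN overlapped, as did UN and HC1, while every HC3 liver was below every HC1 liver. APCS averaged 299 ± 214 CPM in LE, 158 ± 114 in HC3, 135 ± 127 in YA, 0.375 ± 0.531 in QU and 0.0429 ± 0.0744 in HC1. LE, HC3 and YA overlapped, and every liver of these was above every liver of QU and HC1.

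SERPINA3 averaged 8214 ± 315 CPM in QU, 7968 ± 7339 in HC1, 2232 ± 513 in HC3 and 167 ± 115 in LE. QU and HC1 overlapped, as did HC1 and HC3, and every LE liver was below every liver of the other tables. HP averaged 2068 ± 3130 CPM in HC3, 29.3 ± 25.7 in QU and 2.53 ± 3.58 in UN, and no liver of one of these tables overlapped the range of the next.

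The F test over lineages in edgeR gave a range of log2 means of 12.19 for APCS (adjusted p = 0.00584, 62.8% of genes called) and 5.86 for SERPINA3 (adjusted p = 0.0117, 62.1% called). It was 3.14 for CRP (adjusted p = 0.0656, 50.7% called) and 10.16 for HP (adjusted p = 0.0611, 32.6% called), which missed the threshold. APCS had 0, 0 and 2 counts in the HC1 livers and 0 and 12 in the QU livers, so 12.19 is not a measured size. The median range over all genes of the joins was 7.14, 6.43, 6.61 and 5.20, so the median gene had a wider range than CRP and SERPINA3 did. Without the UN liver of mms7714, which leaves UN with 1 liver, the range was 3.14 for CRP and 18.45 for HP. The remaining UN liver, of mms7712, had 0 HP counts, so that HP range rests on a 0 in 1 liver.

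Rows of related genes were listed beside the members. PTX3, the long pentraxin, had 0 CPM in HC1 intestine and skin, against 840, 98.7 and 487 CPM in the livers of mms7664, mms7665 and mms7666. Rows with the symbols of neuronal pentraxins, known from the brain of mammals, were high in some livers. NPTX1 had 0.784 CPM in HC3 skin, against 1935, 1001 and 1428 CPM in the HC3 livers, and NPTX2 had 0 CPM in the skin against 830, 401 and 487 CPM. NPTX2 in QU had 1097 CPM in intestine, against 37.5 and 80.2 CPM in liver. NPTXR had 0 CPM in UN intestine and 8.71 CPM in skin, against 399 and 718 CPM in liver.

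Clade A serpin rows numbered 9 in HC1, 7 in HC3, 7 in LE, 6 in QU, 5 in UN and 5 in YA, with no SERPINA3 value used from UN or YA. Whether related rows share reads was not tested.

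The genes whose level over livers was most like each member's, with values centred within a table, were listed by the root mean square difference on the log2(CPM + 1) scale. CRP was nearest to FKBP5, a co-chaperone of steroid receptors, at 0.389 over 10 livers and 2242 genes, then the cathepsins CTSC (0.442) and CTSF (0.469), where the median gene was at 0.984. APCS was nearest to ARHGEF37 (0.607), CP (0.745) and CLEC17A (0.746) over 13 livers and 1889 genes, with a median of 1.18. SERPINA3 was nearest to SLC16A6, a monocarboxylate transporter family member, at 0.186, and then to ALOX5 (0.311), a lipoxygenase of leukocytes, over 11 livers and 2202 genes, with a median of 0.992. A row with no change among the livers of a table would stand at 0.754 from CRP, 1.02 from APCS and 0.914 from SERPINA3.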

How the data were processed

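The values are whole-number counts as deposited, unnormalised, in a separate table for each lineage whose rows carry a gene symbol, per the file headers. BWA and SAMtools are named in the submitters' processing notes, and the build and counting rule are not given in the sources used here. The extraction protocol speaks of embryos, while the labels give adult tissue. The description of 18 of 23 samples names another lineage's table, so groups follow the titles. The identifier beside the symbol is 1 and the same in all rows of QU. Rows without a name, at most 0.169% of a library, were left out.

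CPM are counts per 1000000 counts of a table. Tables holding a member were joined by symbol and fitted in R 4.3.3 with edgeR 4.0.16 (TMM, filterByExpr with a minimum count of 10, glmQLFit robust, glmQLFTest), with lineage as covariate and Benjamini-Hochberg adjustment over all genes, called under 0.05. Alternatives were DESeq2 1.42.0, other scalings and filters, single tables, the animal as block, and each library left out. A test between tables, lists over pairs of livers, and the HPR, BPI, neuronal pentraxin and serpin rows were added after the data were seen. Animal numbers in the labels pair the tissues, which residuals cannot test with 1 intestine or skin per lineage. On simulated counts the intestine fit recovered 41.1% of changes of 5 on the log2 scale and 1.04% of changes of 2, of 4282 genes, and the skin fit 49.5% and 1.06%, of 4517 genes. The simulation gave all genes the same dispersion, capped from above, so these shares hold for that setting only. Replicates are animals, and p-values of the tests among livers measure the spread between livers of a table. Those of the tissue tests over joined tables rest on the spread of livers and on how the tissue difference varies between tables. They do not measure a spread between intestines or skins of 1 lineage. Tissues of 1 animal entered those fits as independent, except with the animal as a block. Members and lists were chosen with earlier results of these data known. Named genes follow a rule: all members, the 3 nearest genes to CRP, APCS and SERPINA3, and of each list up to 4 members by liver level plus any that passed. Of these, 1 gene is not reported here.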

Additional observations from a re-analysis of the deposited data

Results flagged for a closer look

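APCS in intestine stood at 479% of the mean liver level in LE and at 20.2% in YA, in CPM of the whole table. By whole-table sizes the median gene of the APCS join was also higher in intestine, at 1.47 on the log2 scale. It was picked out because the LE intestine lay above all 3 livers of its table and the YA intestine below both of its livers. The test of the difference between tables gave an adjusted p of 0.9998 (edgeR, Benjamini-Hochberg), so the opposite sides are not shown to differ. Each table had 1 intestine.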

How the results depend on the processing

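Tissue calls rested on few libraries. SERPINA3 in intestine was not called with the animal as replicate block (-7.81) or in HC1, LE or QU alone (-8.28, -13.78 and -9.57), and leaving out 1 library gave -10.12 to -8.75. The LE intestine had 0 counts, so -13.78 is not a measured size. A floor of 3 counts puts that intestine at least 109-fold below the mean LE liver. In skin it was not called with the block (-9.88) or in HC1 alone (-10.37), and leaving out 1 library gave -11.86 to -10.40. CRP in intestine passed with median-of-ratios scaling (-4.58), whole-table sizes (-4.11), DESeq2 (-4.57) and a stricter filter (-4.60). HC1 alone gave -5.88. CRP was not called with the block (-4.57), and with 1 library left out it ranged from -5.19 to -4.27 with no call. APCS in intestine changed sign with a term for livers of animals with several tissues (-0.039) and in YA alone (-2.56), and in skin in HC3 alone (-1.004), with -0.82 to 2.18 over libraries left out. HP in intestine changed sign with the block (1.43), and ranged from -1.83 to 1.47 with 1 library left out. HP in skin ranged from -8.17 to -0.045 over all settings, with no call. The block called 0 genes in every join with 2 or more tables. LBP in skin passed with whole-table sizes (4.86) and without a filter (3.86).

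Between lineages CRP passed with DESeq2 (2.96) and ranged from 2.69 to 3.48 with 1 liver left out. HP passed with DESeq2 (10.15). It was at 9.64 without livers of animals with several tissues, which leaves QU and UN with 1 liver each. HP ranged from 7.18 to 18.45, where 18.45 rests on 1 UN liver at 0 counts. The SERPINA3 spread moved to 1.16 (TMM) and 1.20 (without such livers) in HC3, and to 1.15 without them in LE. Without such livers the median row fell too, from 2.34 to 1.68 in HC3 and from 1.74 to 1.30 in LE. With TMM the ratio was 7.56 for CRP and 14.8 for APCS in HC3, against 4.43 and 8.66. The cause was not tested.

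Counts of genes called moved more: DESeq2 gave 873, 976, 1015 in the intestine joins of CRP, APCS, SERPINA3 against 34, 157, 107, and 1146, 1042, 1013 in the skin joins of CRP, SERPINA3 and HP against 250, 149, 129. With the libraries left out in turn they ranged from 0 to 42, 71 to 249, 30 to 128, and in skin 30 to 256, 0 to 172, 0 to 61. In UN alone the block, the fits without or with a term for livers of animals with several tissues and all left-out fits could not be fitted.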
